A study of Mus musculus with 12 samples.

Results

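Skin of TAp63-/- mice was compared with wild-type (WT) skin in the 6 libraries that the labels give as untreated, out of 12 libraries in the series. The 3 WT skin and 3 TAp63-/- skin libraries were chosen by their genotype and treatment labels. All 6 came from the dorsal skin of shaved C57Bl6 mice aged 4 weeks, and the skin was frozen before total RNA was taken with the Ambion miRVANA kit and sequenced after the Illumina TruSeq RNA kit. The other 6 libraries are squamous cell carcinomas of mice exposed to ultraviolet radiation, and they entered the gene filter but not the comparison. The genotype label is TAp63-/- with no Cre driver and no restriction to a tissue, and the labels do not say whether the WT mice were littermates. Each title holds a bracketed code that no other title repeats, but no label explains the codes or says that the libraries came from separate animals, so p-values measure the spread between these samples, which may be technical.

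The gene Trp63 encodes p63, a transcription factor related to p53, and its promoters give 2 classes of isoform. TAp63 isoforms carry an N-terminal transactivation domain, whereas ΔNp63 isoforms lack that domain and are the main p63 of basal keratinocytes. ΔNp63 is known for keeping up the proliferating basal layer of stratified epithelia, and TAp63 for roles in the response to DNA damage, in stem and precursor cells of the skin and in lipid and glucose metabolism. Mouse dorsal skin also holds hair follicles, sebaceous glands, a fat layer and a sheet of skeletal muscle, the panniculus carnosus. In bulk samples such as these, fewer cells of a type and less RNA per cell cannot be told apart.

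Expression was deposited as FPKM (sequenced fragments relative to transcript length and library size) and differences are given as the change in log2(FPKM + 1), TAp63-/- minus WT. That scale understates the change of genes with low values. The read depth is unknown, so no counting error can be given. Each library had 13063 to 13073 gene symbols at 1 FPKM or above. The columns share nearly the same sorted values, from which quantile normalization was inferred, so near-equal counts say nothing of library quality. Pearson's r across genes was 0.8947 to 0.9703 between genotypes, 0.9293 to 0.9693 within WT skin and 0.9159 to 0.9611 within TAp63-/- skin. The label of the tissue was borne out by its markers: over the 6 libraries Krt5 ran from 1298 to 1969 FPKM, Krt14 from 862 to 1245 FPKM, Krt10 from 1620 to 5585 FPKM and the dermal collagen gene Col1a1 from 387 to 1461 FPKM. Every library had low Xist, at most 0.0252 FPKM, and Ddx3y of the Y chromosome at 14.7 FPKM or more, a male-type pattern in all 6. Eif2s3y, also of the Y chromosome, was nevertheless lower in TAp63-/- skin without overlap, at 83.1, 72.3 and 99.9 FPKM in WT and 68.4, 52.6 and 47.8 FPKM in TAp63-/- skin (log2 change -0.59, unadjusted p = 0.0187, adjusted p = 0.923), whereas Uty and Kdm5d had means on the other side (log2 changes 0.35 and 0.18). A listed value of 0 does not show absence, since 97 symbols in WT skin and 106 in TAp63-/- skin held a 0 in 1 library although a replicate had at least 5 FPKM.

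Trp63 itself (chromosome 16, 25683763 to 25892102, mm10) was at 113, 100 and 119 FPKM in WT skin and at 111, 98.2 and 84.5 FPKM in TAp63-/- skin. The ranges overlapped, and the log2 change was -0.18 (SE 0.14, limma's unadjusted p = 0.236, adjusted p = 0.923). The deposited value covers all isoforms of the gene and therefore cannot show whether TAp63 is lost. The related factor Trp73 was at 5.27, 6.65 and 7.33 FPKM in WT and at 6.50, 4.66 and 5.26 FPKM in TAp63-/- skin, a log2 change of -0.20. Trp53 was at 48.9, 52.7 and 43.7 FPKM in WT and at 37.3, 40.4 and 58.1 FPKM in TAp63-/- skin, a log2 change of -0.12, which was 0.00586 without TAp63-/- skin replicate 1. None of these 3 genes passed an unadjusted p of 0.05.

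Across all genes the genotypes differed little beyond the Skint locus. Of 14752 genes tested, 3 passed an adjusted p of 0.05 with limma, and all 3 were higher in TAp63-/- skin (0.0203% of the genes tested), against 0 lower (0%). They are Skint3, Skint4 and Skint9, members of a family of butyrophilin-like genes of the epidermis and thymus, whose founder Skint1 is known for selecting the dendritic epidermal T cells. At an unadjusted p under 0.05 there were 738 genes (5%), of which 446 were higher (3.02%) and 292 lower (1.98%), and 147 genes had an unadjusted p under 0.01. If no gene differed, 737.6 genes would be expected at an unadjusted p under 0.05. The median log2 change over all genes was 0.016, a value that the inferred quantile normalization holds near 0. The number at an unadjusted p under 0.05 was 348 without WT skin replicate 1, 445 without WT skin replicate 2 and 1264 without TAp63-/- skin replicate 1, so it rests on which libraries are compared. The volcano plot shows Skint3, Skint4 and Skint9 apart from the other genes, with the small nuclear RNA U6 farthest left at a log2 change of -9.64.

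**Figure D1:**
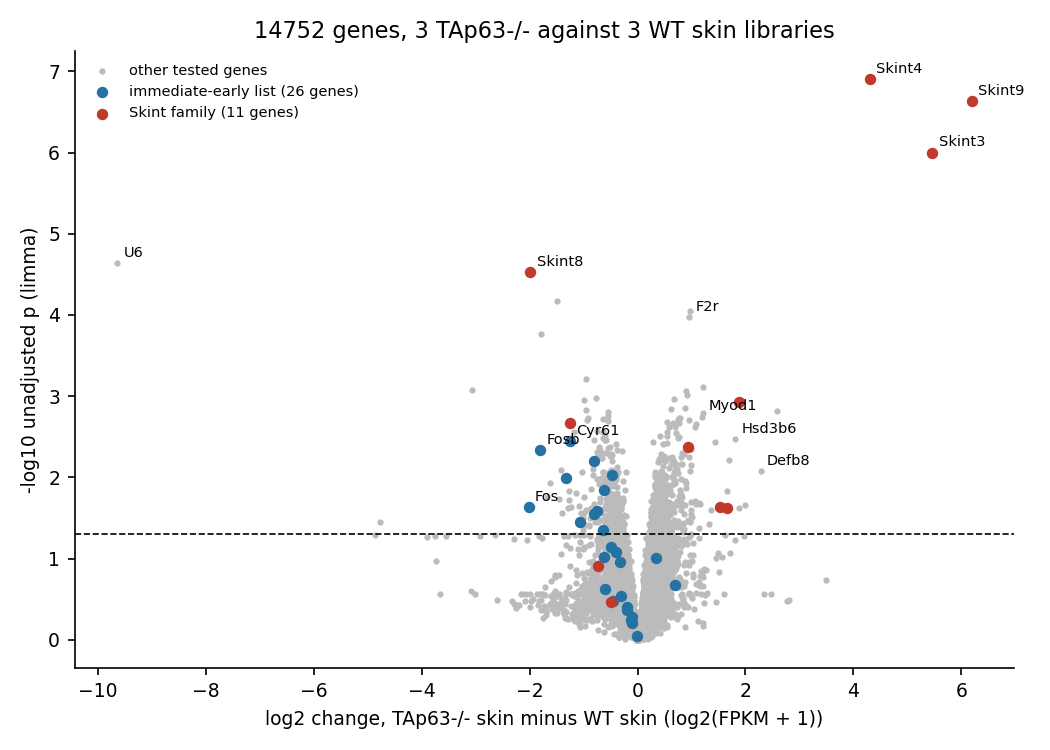
Change in log2(FPKM + 1), TAp63-/- minus WT skin, on the horizontal axis against -log10 of limma's unadjusted p on the vertical axis, 1 point for each of the 14752 tested genes, with a dashed line at the 0.05 level. Skint3, Skint4 and Skint9 lie apart at log2 changes of 4.30 to 6.19, U6 lies farthest left at -9.64, and most immediate-early genes (blue) lie left of 0.

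Skint9 (chromosome 4, 112385969 to 112433985) was at 0.0180, 0.0369 and 0.0135 FPKM in WT skin and at 72.9, 102 and 54.0 FPKM in TAp63-/- skin, a log2 change of 6.19 (SE 0.24, adjusted p = 0.00171). Skint4 (chromosome 4, 112072016 to 112168076) was at 0, 0.0208 and 0.00486 FPKM in WT and at 19.2, 22.1 and 15.9 FPKM in TAp63-/- skin, a log2 change of 4.30 (SE 0.15, adjusted p = 0.00171). Skint3 (chromosome 4, 112232245 to 112300468) was at 0, 0.00987 and 0.0186 FPKM in WT and at 47.4, 59.6 and 29.0 FPKM in TAp63-/- skin, a log2 change of 5.46 (SE 0.27, adjusted p = 0.00494). All 3 were thus near 0 in each WT library and at 15.9 FPKM or more in each TAp63-/- library. With TAp63-/- skin replicate 1 and WT skin replicate 3 both left out, an alternative chosen after seeing the data, the changes were 6.19, 4.29 and 5.41, but none passed (adjusted p = 0.113, 0.0997 and 0.174). Of the other 8 Skint genes, Skint1, Skint5, Skint6 and Skint11 were higher and Skint2 and Skint8 lower at an unadjusted p under 0.05. The deposited values do not tell how reads shared by similar Skint copies were divided, so values of single members are uncertain. Skint8 was at 13.3, 12.8 and 17.5 FPKM in WT and at 3.29, 3.08 and 2.34 FPKM in TAp63-/- skin (log2 change -1.99, adjusted p = 0.0883). Among the 76 tested genes other than Skint genes within 5 Mb of the start of Skint9, 6 had an unadjusted p under 0.05 (7.89%, against 5% of all genes), among them Slc5a9 at a log2 change of -1.02 and Tmem53 at -0.64. Within 5 Mb of the start of Trp63 it was 1 of 45 genes (2.22%).

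Beyond the Skint genes, the list with most members at an unadjusted p under 0.05 was the immediate-early genes, which encode transcription factors and feedback regulators that cells switch on within minutes of growth factor, stress or wounding signals. All 26 members were tested. Of these, 24 were lower (46.4% of all genes were) and 2 higher in TAp63-/- skin, with a median log2 change of -0.48 against 0.016 over all genes. At an unadjusted p under 0.05, 11 were lower (against 1.98% of all genes) and 0 higher, and 0 passed the adjusted p. In 10 members every TAp63-/- library was below every WT library, which held for 3.85% of all genes. The mean log2(FPKM + 1) of the list was 4.97, 4.56 and 4.74 in WT skin and 4.41, 4.20 and 4.00 in TAp63-/- skin, without overlap. Promoters are shown for Fos, Fosb and Cyr61, as members of the list with large changes that do not overlap between the groups. The sequences are the 250 bases before each RefSeq start (GRCm38.p6), 5′ to 3′ on the strand of the gene: chr12:85473640-85473889 on the plus strand for Fos, chr7:19310046-19310295 on the minus strand for Fosb and chr3:145649986-145650235 on the minus strand for Cyr61, which RefSeq lists as Ccn1. Capitals mark TGACG, the core of a cAMP response element, on either strand (CGTCA where it lies on the other strand) and the TATA box letters TATAAA on either strand.
Fos: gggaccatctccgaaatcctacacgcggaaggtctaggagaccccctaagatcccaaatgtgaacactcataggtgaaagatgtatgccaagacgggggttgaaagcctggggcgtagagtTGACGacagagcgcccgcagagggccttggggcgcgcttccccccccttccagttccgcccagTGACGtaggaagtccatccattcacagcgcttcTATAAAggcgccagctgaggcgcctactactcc
Fosb: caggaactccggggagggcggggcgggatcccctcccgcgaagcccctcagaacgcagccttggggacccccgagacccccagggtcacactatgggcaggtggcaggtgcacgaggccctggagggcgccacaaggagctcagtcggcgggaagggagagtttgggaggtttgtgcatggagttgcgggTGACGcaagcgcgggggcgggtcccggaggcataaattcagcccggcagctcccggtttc
Cyr61: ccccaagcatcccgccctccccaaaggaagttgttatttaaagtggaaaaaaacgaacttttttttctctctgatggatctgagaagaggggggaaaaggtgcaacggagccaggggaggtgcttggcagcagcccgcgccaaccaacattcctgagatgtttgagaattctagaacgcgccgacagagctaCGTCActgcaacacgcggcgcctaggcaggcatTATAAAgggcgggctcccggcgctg

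TGACG lay 129 and 66 bases before the start of Fos, 60 before that of Fosb and 58 before that of Cyr61, and TATAAA lay 33 bases before the start of Fos and 25 before that of Cyr61. Of the 26 immediate-early members, 22 had a promoter in the RefSeq table. TGACG was found for 14 of these 22 members, against 17.7% of all 32817 windows of 250 bases. A member was counted if a window at any of its starts matched, whereas the share of all windows takes each window singly. The shares of members and of windows are therefore unlike measures, also for the motifs below. TGACG was found for 6 of the 9 members with a promoter that were lower at an unadjusted p under 0.05. TATAAA was in 3 of the 22, against 12.4% of all windows. The p53 family motif, a single copy of the site's repeat rather than a full site, was in 1 of the 22 (7.12% of all windows). The CArG box of serum response factor was in 2 (1.47%). None of these motifs overlapped another in the 3 promoters shown, and a match describes letters only.

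Among the AP-1 subunits, Fos (chromosome 12, 85473890 to 85477273) was at 158, 56.6 and 215 FPKM in WT skin and at 40.3, 49.0 and 13.4 FPKM in TAp63-/- skin, a log2 change of -2.02 (SE 0.66, unadjusted p = 0.0233). Fosb (chromosome 7, 19302721 to 19310045) was at 51.9, 22.4 and 18.5 FPKM in WT and at 9.62, 7.12 and 5.64 FPKM in TAp63-/- skin, a log2 change of -1.80 (SE 0.41, unadjusted p = 0.00464). For both, all TAp63-/- libraries lay below all WT libraries, with a spread of several fold among the WT libraries. Their partner Junb was at 88.9, 55.9 and 66.8 FPKM in WT and at 34.1, 39.3 and 44.2 FPKM in TAp63-/- skin (log2 change -0.81, unadjusted p = 0.00631). Jun was at 45.1, 35.1 and 37.5 FPKM in WT and at 27.1, 27.2 and 29.6 FPKM in TAp63-/- skin (log2 change -0.47, unadjusted p = 0.00946). These 2 also did not overlap, whereas the AP-1 subunits Fosl1, Fosl2 and Jund overlapped, at log2 changes of -0.32, -0.01 and -0.13.

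Among the other transcription factors, Egr1, a zinc finger factor induced by growth signals, was at 99.7, 61.9 and 63.2 FPKM in WT and at 17.1, 40.2 and 33.5 FPKM in TAp63-/- skin (log2 change -1.33, SE 0.36, unadjusted p = 0.0101). Atf3, a stress-induced repressor, was at 33.7, 20.5 and 10.7 FPKM in WT and at 9.84, 7.64 and 9.26 FPKM in TAp63-/- skin (log2 change -1.06, SE 0.39, unadjusted p = 0.0357). The groups did not overlap in either gene, although WT skin replicate 3 came close to the TAp63-/- libraries in Atf3. Egr2, Egr3, Klf2, Klf4 and Klf6 did not pass an unadjusted p of 0.05, with log2 changes from -0.49 in Klf2 to -0.10 in Klf6. The nuclear receptor genes Nr4a2 and Nr4a3 were the 2 members with higher means in TAp63-/- skin. Nr4a2 was at 1.18, 1.28 and 1.13 FPKM in WT and at 7.09, 1.58 and 1.16 FPKM in TAp63-/- skin, so its difference lay mainly in TAp63-/- skin replicate 1. Nr4a3 lay opposite to the rest of the list without overlap, at 1.80, 1.24 and 1.55 FPKM in WT and 2.91, 1.87 and 1.86 FPKM in TAp63-/- skin (log2 change 0.33, unadjusted p = 0.0988), and 6.77% of all genes were higher without overlap.

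Among the secreted and feedback members, Cyr61 (chromosome 3, 145646971 to 145649985), a matricellular protein and a target of YAP, was at 41.1, 24.9 and 44.1 FPKM in WT and at 17.1, 15.8 and 11.02 FPKM in TAp63-/- skin (log2 change -1.25, SE 0.27, unadjusted p = 0.00356). Zfp36, which destabilises cytokine mRNA, was at 85.3, 58.1 and 101 FPKM in WT and at 56.6, 49.4 and 37.4 FPKM in TAp63-/- skin (log2 change -0.74, unadjusted p = 0.0261). Neither gene overlapped between the groups. Ier2, Ier3 and the antiproliferative gene Btg2 had log2 changes of -0.81, -0.62 and -0.65 (unadjusted p = 0.0283, 0.0144 and 0.0448), and of these only Btg2 overlapped. Dusp1, a phosphatase that switches off MAP kinases, overlapped, at 43.7, 34.0 and 72.6 FPKM in WT and 46.0, 39.7 and 16.3 FPKM in TAp63-/- skin. The number of the 26 genes at an unadjusted p under 0.05 was 6 without WT skin replicate 1, 7 without WT skin replicate 3, 7 without TAp63-/- skin replicate 2 and 6 with all 12 libraries in the fit. The list's median stayed between -0.58 and -0.39 when each library was left out in turn.

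**Figure D2:**
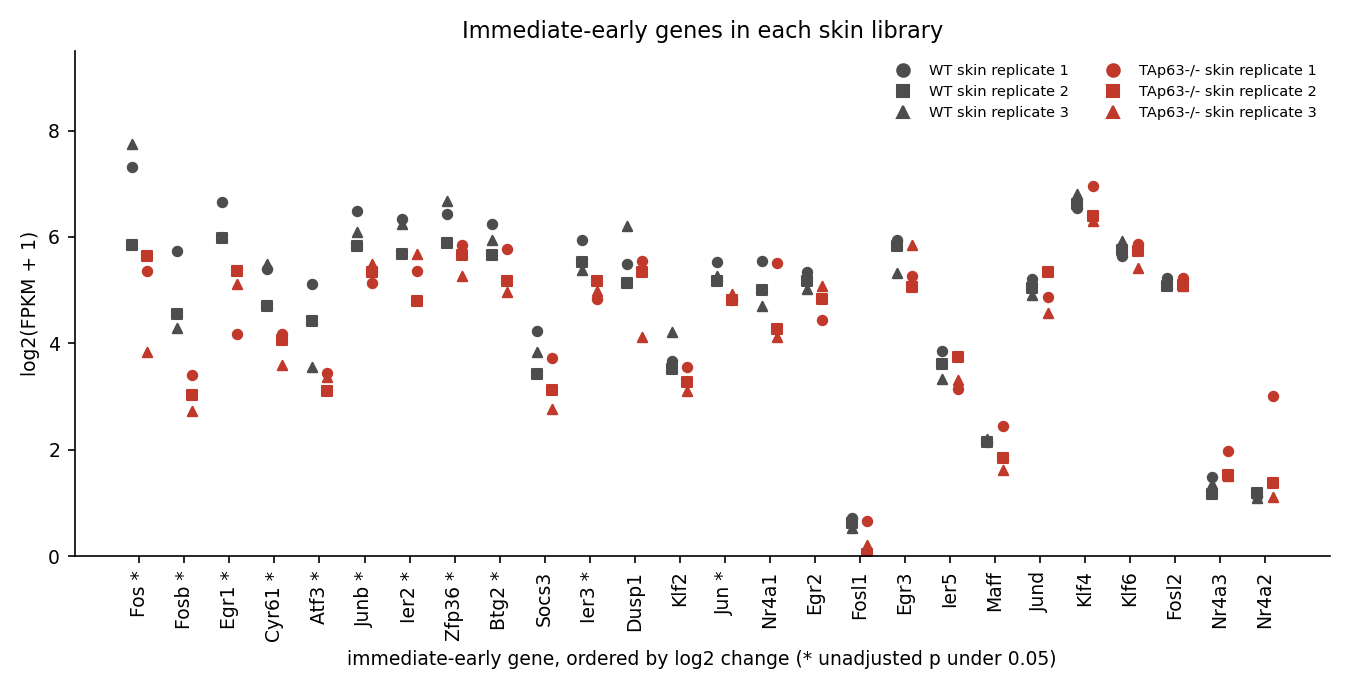
log2(FPKM + 1) of the 26 immediate-early genes in each skin library (grey WT, red TAp63-/-, 1 marker shape per replicate), ordered by the change, with an asterisk at an unadjusted p under 0.05. The red points of Fos, Fosb, Egr1 and Cyr61 all lie below the grey ones, and Nr4a2 and Nr4a3, at the right end, have the higher mean in red.

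Other stress and hormone response lists had at most 1 member at an unadjusted p under 0.05. Of 12 heat shock genes, 10 were higher and 0 had an unadjusted p under 0.05, with a median log2 change of 0.14. The chaperone gene Hspa8 was at 700, 718 and 613 FPKM in WT and at 806, 1019 and 781 FPKM in TAp63-/- skin (unadjusted p = 0.0755). Of 16 p53 target genes, 10 were higher, the median was 0.080 (-0.0349 when TAp63-/- skin replicate 2 was left out), and 1 had an unadjusted p under 0.05. That gene was Ccng1, cyclin G1, at 59.9, 67.8 and 67.0 FPKM in WT and 110, 93.8 and 91.0 FPKM in TAp63-/- skin (log2 change 0.59, SE 0.12, unadjusted p = 0.00241, adjusted p = 0.849). All TAp63-/- libraries were above all WT libraries in Ccng1, as was so for 998 of the genes tested (6.77%). Of 10 glucocorticoid response genes, the receptor co-chaperone gene Fkbp5 was the 1 with an unadjusted p under 0.05, at 4.49, 4.82 and 6.10 FPKM in WT and 8.74, 9.11 and 8.77 FPKM in TAp63-/- skin (log2 change 0.70, unadjusted p = 0.00242). Its list neighbours Sgk1 and Tsc22d3 overlapped, at log2 changes of -0.66 and 0.57. Of 18 circadian clock genes 13 were higher, and Per3 alone had an unadjusted p under 0.05 (0.0296), at 1.68, 1.81 and 2.13 FPKM in WT and 2.73, 2.34 and 3.29 FPKM in TAp63-/- skin.

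Genes reported as p63 targets, a list of adhesion, keratin, cell cycle and metabolic genes, lay on both sides of 0. Of 28 tested, 14 were higher and 14 lower, the median log2 change was 0.0035 (-0.0638 without TAp63-/- skin replicate 1), and 0 had an unadjusted p under 0.05 (5% of all genes). Dicer1, the ribonuclease that processes microRNA precursors, was at 6.34, 6.76 and 6.64 FPKM in WT and at 7.48, 6.58 and 5.74 FPKM in TAp63-/- skin. Of the 9 genes of microRNA processing, Dicer1 included, 0 had an unadjusted p under 0.05, with Dgcr8 closest, at a log2 change of 0.24 (unadjusted p = 0.097). Chuk, which encodes IKKα of epidermal differentiation, was at 5.77, 5.85 and 6.48 FPKM in WT and at 6.50, 9.62 and 7.92 FPKM in TAp63-/- skin (unadjusted p = 0.0753), so the groups lay next to each other without overlap.

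Across all genes, those with the largest differences were taken from those with an unadjusted p under 0.05, no overlap between the groups and at least 5 FPKM on average in the higher group, without the Skint family, predicted genes, small RNAs and antigen receptor segments. There were 425 such genes, 256 higher and 169 lower, and the 12 largest in each direction are plotted by library. Their adjusted p was 0.831 to 0.923, so none was called.

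**Figure D3:**
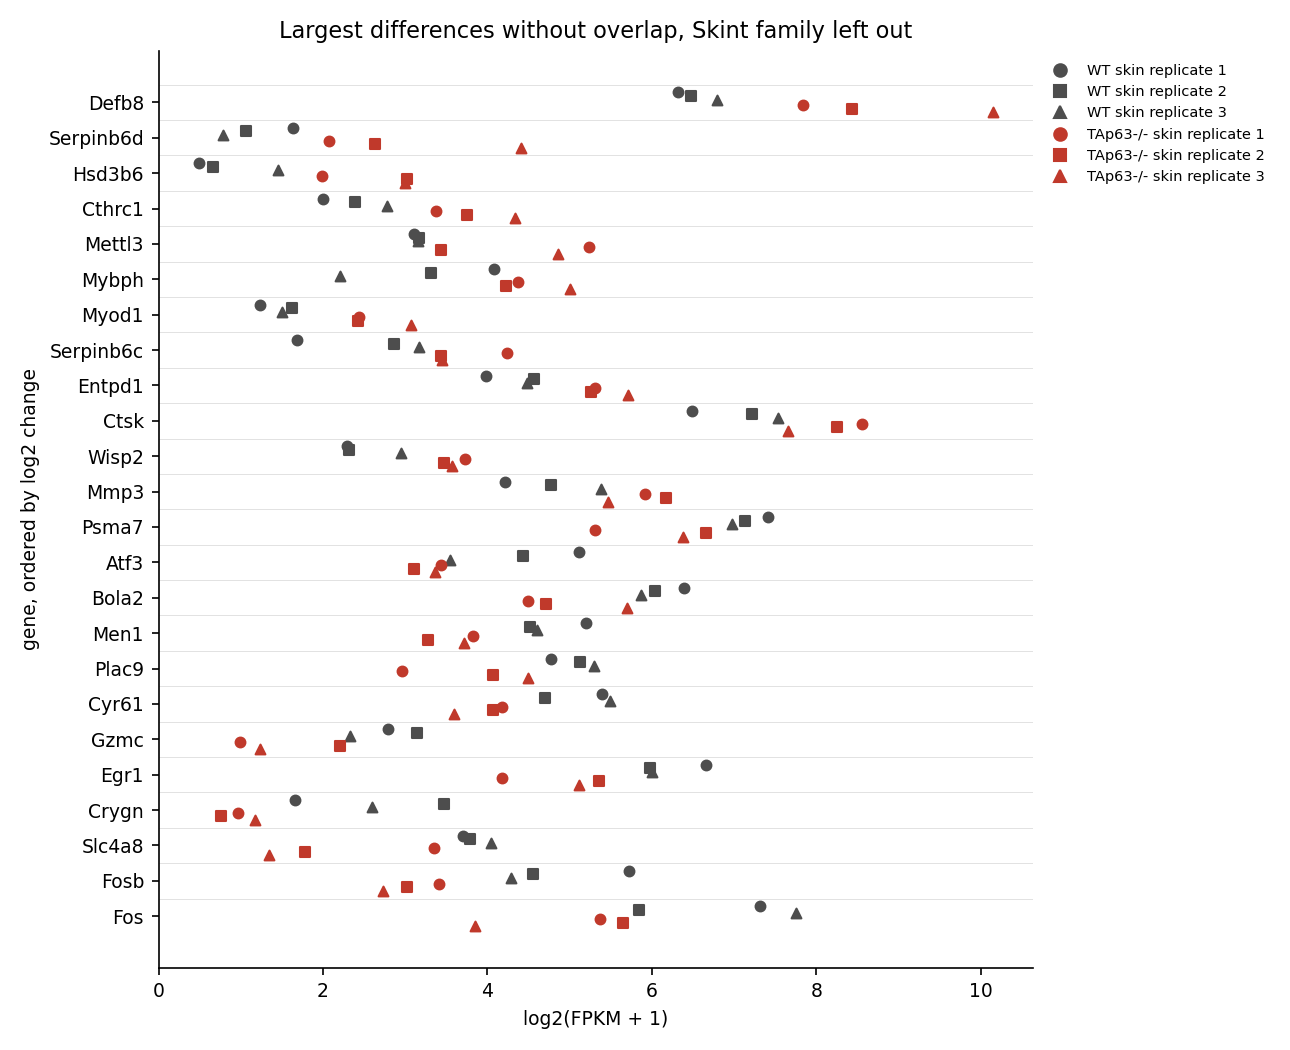
log2(FPKM + 1) in each skin library (grey WT, red TAp63-/-, 1 marker shape per replicate) for the 12 genes most raised and the 12 most lowered on average, ordered by the change. Selection required that the colours do not overlap, and the gap is wide for Defb8, Entpd1 and Fosb but narrow for Mmp3, Gzmc and Atf3.

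Defb8 (chromosome 8, 19445769 to 19447606), a beta-defensin and thus an antimicrobial peptide, was at 78.7, 88.1 and 110 FPKM in WT and at 228, 344.5 and 1137 FPKM in TAp63-/- skin, a log2 change of 2.28 (SE 0.59, unadjusted p = 0.00839), or 1.61 without TAp63-/- skin replicate 3. Every TAp63-/- library exceeded every WT library, with replicate 3 the highest. The serine protease inhibitor genes Serpinb6d and Serpinb6c, neighbours on chromosome 13, had log2 changes of 1.88 and 1.14 (unadjusted p = 0.0237 and 0.0425), and Serpinb6a beside them had 0.70 (unadjusted p = 0.011). These are close paralogs whose reads the quantification may have divided, so their separate values are uncertain. Mettl3, the catalytic subunit of the m6A RNA methyltransferase, was at 7.59, 8.002 and 7.89 FPKM in WT and at 36.8, 9.79 and 28.1 FPKM in TAp63-/- skin, so replicate 2 lay near the WT values (log2 change 1.37, unadjusted p = 0.0254). Entpd1, which encodes the ectonucleotidase CD39, was at 14.8, 22.8 and 21.4 FPKM in WT and at 38.5, 37.2 and 51.4 FPKM in TAp63-/- skin (log2 change 1.08, SE 0.21, unadjusted p = 0.0022).

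Other genes with higher means in TAp63-/- skin encode proteins of the matrix or enzymes that act on it, but the collagen list lay on both sides of 0. Of 18 collagen chain genes 10 were higher and 8 lower, with a median log2 change of 0.099, which turned negative without WT skin replicate 1, TAp63-/- skin replicate 2 or TAp63-/- skin replicate 3 (down to -0.11 in the last case). Cthrc1, a secreted collagen triple helix repeat protein, was at 3.00, 4.22 and 5.84 FPKM in WT and at 9.40, 12.5 and 19.3 FPKM in TAp63-/- skin (log2 change 1.44, SE 0.31, unadjusted p = 0.00369). The collagen-degrading protease genes Ctsk and Mmp3 had log2 changes of 1.07 each (unadjusted p = 0.0215 and 0.0193), and so did Wisp2, a secreted protein of the CCN family, at 3.89, 3.98 and 6.71 FPKM in WT and 12.3, 10.1 and 10.8 FPKM in TAp63-/- skin. Of 9 fibroblast genes, 8 were higher, with a median log2 change of 0.67, and Lum, a proteoglycan of collagen fibrils, had an unadjusted p of 0.0118. Lum was at 180, 266 and 299 FPKM in WT and at 510, 510 and 355 FPKM in TAp63-/- skin. The collagens Col1a1, Col1a2 and Col3a1 overlapped, and the summed picture of the fibroblast list did too: its mean log2(FPKM + 1) was 6.94, 7.59 and 7.68 in WT and 8.16, 8.13 and 7.59 in TAp63-/- skin. Of 26 genes of matrix assembly 22 were higher, with 2, Fbln1 and Bmp1, at an unadjusted p under 0.05 (7.69%, against 5% of all genes), at log2 changes of 0.39 and 0.37.

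Among the lower genes that are not immediate-early, Slc4a8, a bicarbonate transporter, was at 12, 12.8 and 15.5 FPKM in WT and at 9.22, 2.43 and 1.54 FPKM in TAp63-/- skin (log2 change -1.69, unadjusted p = 0.0177). Men1, which encodes menin, a subunit of histone methyltransferase complexes, was at 35.6, 21.9 and 23.4 FPKM in WT and at 13.1, 8.66 and 12.1 FPKM in TAp63-/- skin (log2 change -1.17, SE 0.24, unadjusted p = 0.0028). The 3 TAp63-/- values of Men1 lay close together, while those of Slc4a8 did not. Psma7, a subunit of the proteasome core, and Bola2, an iron-sulfur assembly factor, had log2 changes of -1.06 and -1.13 (unadjusted p = 0.0276 and 0.0158). Crygn, a crystallin, and Plac9 had -1.62 and -1.23 (unadjusted p = 0.0118 and 0.0233). Gzmc, a granzyme of cytotoxic lymphocytes, was at 5.89, 7.84 and 4.04 FPKM in WT and at 0.980, 3.61 and 1.35 FPKM in TAp63-/- skin (log2 change -1.28, unadjusted p = 0.0147).

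F2r, Hist2h2be, Glo1 and Itgb6 had smaller p than these without reaching the largest changes. They and the small RNAs below were named after their values were seen. F2r, the thrombin receptor PAR1, was at 9.51, 11.1 and 10.1 FPKM in WT and at 20.9, 21.3 and 20.1 FPKM in TAp63-/- skin (log2 change 0.95, SE 0.10, unadjusted p = 0.000106, adjusted p = 0.196). The libraries of each group lay within a narrow band in F2r. The histone gene Hist2h2be was at 0.900, 0.857 and 1.11 FPKM in WT and at 3.05, 2.73 and 2.78 FPKM in TAp63-/- skin (log2 change 0.98, adjusted p = 0.189), and it has near-identical copies. Lower values were found for Glo1, a glyoxalase that clears methylglyoxal, at 132, 126 and 135 FPKM in WT and 83.8, 57.2 and 58.3 FPKM in TAp63-/- skin (log2 change -0.99, unadjusted p = 0.00111). Itgb6, the integrin chain that activates latent TGF-beta, was at 24.4, 28.5 and 27.8 FPKM in WT and at 16.8, 13.0 and 11.04 FPKM in TAp63-/- skin (log2 change -0.95, unadjusted p = 0.00148). The spliceosomal RNA U6 was summed over 950 entries of the table. It was at 723, 260 and 2713 FPKM in WT and was listed at 0.0167, 0 and 0 FPKM in TAp63-/- skin. Its log2 change of -9.64 (unadjusted p = 2.3e-05, adjusted p = 0.0848) was the lowest of all genes tested, but small RNAs were left out of the largest differences. Of 9 small nuclear RNAs tested, 2 were lower at an unadjusted p under 0.05, U6 and U6atac, against 1.98% of all genes. Of 85 small nucleolar RNAs tested, 0 had an unadjusted p under 0.05. U6atac overlapped, at 63.4, 92.4 and 250.2 FPKM in WT and at 72.1, 0.0130 and 0 FPKM in TAp63-/- skin (log2 change -4.77, unadjusted p = 0.0357). Both are short RNAs with many copies.

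In the epidermis, basal genes lay on both sides of 0 and differentiation genes were mostly a little higher. Of 12 basal keratinocyte genes 6 were higher and 6 lower, with a median log2 change of 0.00020 (-0.244 without TAp63-/- skin replicate 1) and 0 at an unadjusted p under 0.05. Of 28 cornified envelope genes 24 were higher (53.3% of all genes were), with a median of 0.34, and 2 had an unadjusted p under 0.05 (7.14%, against 5% of all genes). Hrnr, which encodes hornerin, was at 8.55, 18.5 and 23.5 FPKM in WT and at 27.1, 36.5 and 32.2 FPKM in TAp63-/- skin (log2 change 0.98, unadjusted p = 0.0358). Rptn, repetin, was at 7.76, 6.85 and 6.45 FPKM in WT and at 8.58, 8.75 and 9.18 FPKM in TAp63-/- skin (log2 change 0.30, unadjusted p = 0.043). Both belong to the epidermal differentiation complex on chromosome 3, as do loricrin and filaggrin, whose genes Lor and Flg overlapped between the groups. Of 16 barrier lipid genes 15 were higher, and Elovl4, which makes the very long chain fatty acids of ceramides, was at 306, 396 and 407 FPKM in WT and at 462, 675 and 549 FPKM in TAp63-/- skin (log2 change 0.60, unadjusted p = 0.0238). WT skin replicate 1 was the lowest library of the cornified envelope list, at a mean log2(FPKM + 1) of 5.32 against 5.84 to 6.18 in the others.

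The sebaceous gland list, genes of sebum lipid synthesis, had 13 of 16 tested genes higher and 3 at an unadjusted p under 0.05 in that direction, against 3.02% of all genes. Hsd3b6, a steroid dehydrogenase, was at 0.408, 0.578 and 1.73 FPKM in WT and at 2.96, 7.12 and 7.003 FPKM in TAp63-/- skin (log2 change 1.80, SE 0.38, unadjusted p = 0.00338). Far2, which makes fatty alcohols, was at 37.4, 63.9 and 60.8 FPKM in WT and at 78.4, 92.0 and 101 FPKM in TAp63-/- skin (log2 change 0.76, unadjusted p = 0.0169). Awat1, a wax synthase, had a log2 change of 0.87 (unadjusted p = 0.0427). In these 3 genes the groups did not overlap, but the list's median was only 0.17, and markers such as Krt79, Scd1 and Awat2 overlapped. The number was 5 without TAp63-/- skin replicate 1 and 1 without TAp63-/- skin replicate 3.

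Outside the Skint family, hair genes had the list medians farthest from 0, but the libraries of the 2 genotypes were intermixed in them. All 12 hair shaft keratin genes, all 19 keratin-associated protein genes and all 12 tested inner root sheath genes were lower in TAp63-/- skin on average, with median log2 changes of -1.46, -1.33 and -1.55, yet 0 had an unadjusted p under 0.05. The inner root sheath median was 0.243 without TAp63-/- skin replicate 1. The mean log2(FPKM + 1) of the hair shaft list was 5.29, 3.63 and 1.18 in WT and 0.39, 2.40 and 3.53 in TAp63-/- skin. WT skin replicate 3 and TAp63-/- skin replicate 1 were thus the low libraries, 1 of each genotype. Krt71, an inner root sheath keratin, was at 1699, 970 and 140 FPKM in WT and at 2.66, 439 and 1245 FPKM in TAp63-/- skin. The same 2 libraries were the lowest pair in 11 of the 56 lists, the melanocyte and mitosis lists among them. Of the 6 skin libraries they alone listed mt-Co1, mt-Co3, mt-Atp6 and mt-Atp8 at 0. These genes belong to the mitochondrially encoded list, which is 1 of those 11. The 2 libraries also stood at the positive end of the first principal component over all tested genes, which took 49.8% of the variance. Their scores were 33.23 for WT skin replicate 3 and 61.45 for TAp63-/- skin replicate 1, against -42.54 to -7.807 for the others. With the hair shaft list's mean as a covariate, Skint3, Skint4 and Skint9 were the 3 genes called and 799 genes had an unadjusted p under 0.05. Leaving out both libraries gave 0 calls, with 1048 genes at an unadjusted p under 0.05.

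All 15 hair matrix regulator genes were lower on average in TAp63-/- skin, with a median log2 change of -0.53, or -0.124 with the hair shaft list's mean as a covariate. At an unadjusted p under 0.05 there were 2, Foxq1 and Bmp4 (1.98% of all genes were lower at that level), and neither passed the adjusted p (0.923 for both). Foxq1, a forkhead factor of hair differentiation, was at 13.8, 9.73 and 10.8 FPKM in WT and at 5.89, 7.46 and 7.31 FPKM in TAp63-/- skin (log2 change -0.65, SE 0.17, unadjusted p = 0.00866). Bmp4, a morphogen of the follicle, was at 9.12, 8.80 and 8.42 FPKM in WT and at 6.46, 6.05 and 7.95 FPKM in TAp63-/- skin (log2 change -0.33, unadjusted p = 0.0488). The BMP target gene Id1 was lower as well, at 107, 79.4 and 78.8 FPKM in WT and 52.9, 66.0 and 71.9 FPKM in TAp63-/- skin (log2 change -0.46, unadjusted p = 0.0409). Of 15 hair follicle stem cell genes 5 were higher and 10 lower, with 0 at an unadjusted p under 0.05 and a median of -0.049, which became 0.0041 when TAp63-/- skin replicate 3 was left out. The Wnt, hedgehog and Notch lists also had 0 members at an unadjusted p under 0.05.

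**Figure D4:**
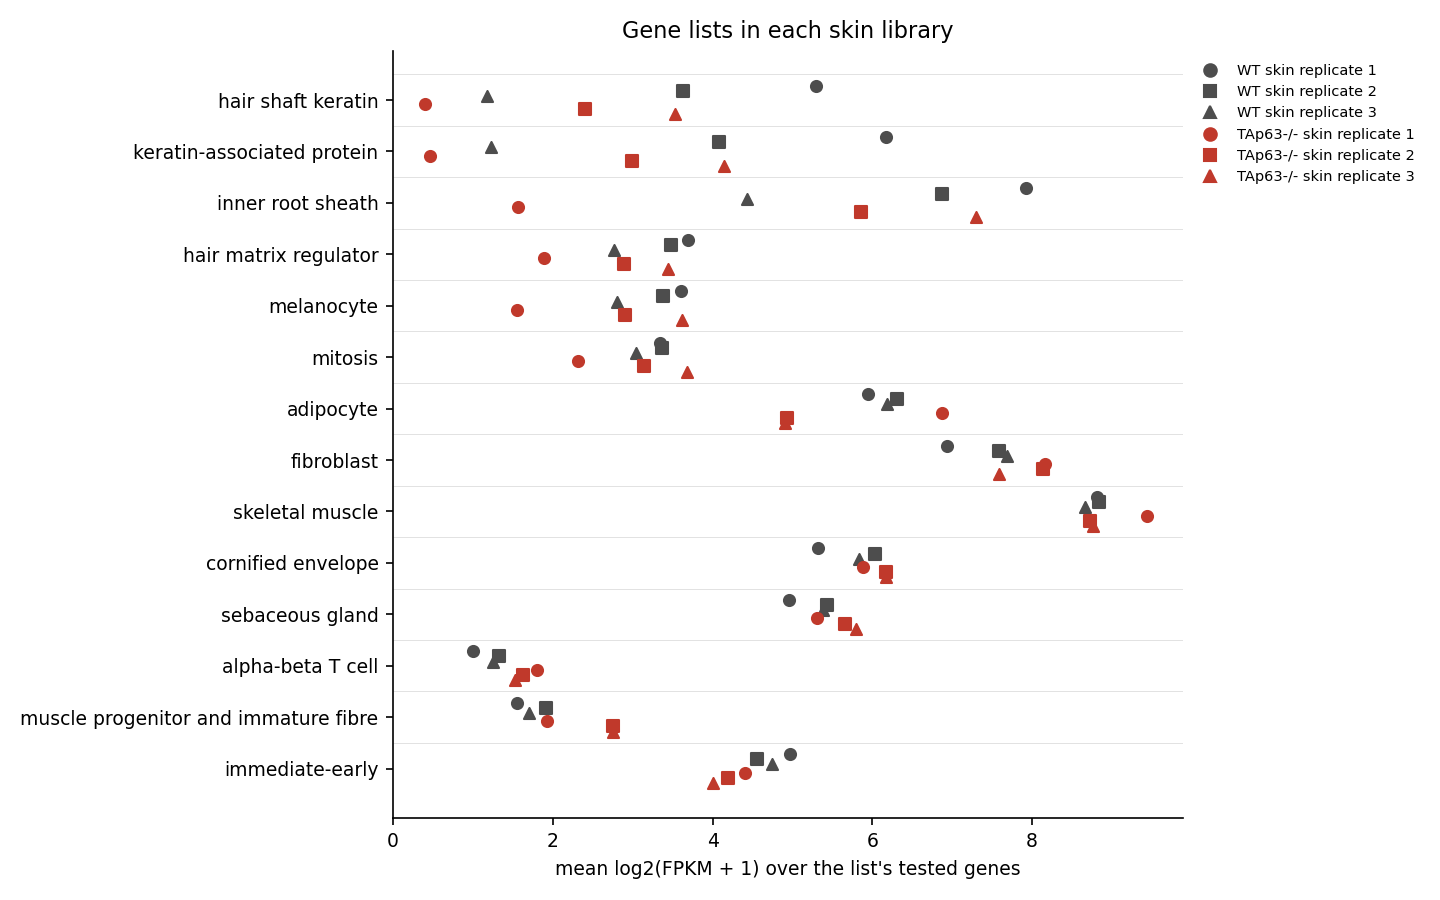
Mean log2(FPKM + 1) over the tested genes of 14 lists in each skin library (grey WT, red TAp63-/-, 1 marker shape per replicate). In the hair, melanocyte and mitosis lists WT replicate 3 and TAp63-/- replicate 1 lie lowest whatever the genotype, and in the bottom 3 lists the colours do not overlap.

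Of the 56 lists, the mean level did not overlap between genotypes in 5: the p63 family, the Skint family, the alpha-beta T cell list, the muscle progenitor list and the immediate-early genes. Those 5 are 8.93% of the lists, near the 10.6% of single genes that did not overlap. All 5 tested genes of the muscle progenitor and immature fibre list were higher, with a median log2 change of 0.81. Myod1, the factor that commits cells to muscle, was at 1.35, 2.07 and 1.83 FPKM in WT and at 4.42, 4.36 and 7.40 FPKM in TAp63-/- skin (log2 change 1.19, SE 0.22, unadjusted p = 0.00179). Its list neighbour Myog, myogenin, was at 1.58, 2.01 and 1.24 FPKM in WT and at 2.40, 6.69 and 4.18 FPKM in TAp63-/- skin (log2 change 0.98, unadjusted p = 0.02). The groups did not overlap in these 2 genes (6.77% of all genes were higher without overlap), while the neonatal fibre gene Myh8 overlapped. At an unadjusted p under 0.05, 2 of the 5 genes were higher, against 3.02% of all genes. That number was 1 without WT skin replicate 1, WT skin replicate 3 or TAp63-/- skin replicate 3, and 5 without TAp63-/- skin replicate 1. It was 0 with the filter at a mean of at least 5 FPKM, which neither Myod1 nor Myog passed.

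Mature muscle genes were high in every library. Of 18 skeletal muscle genes 14 were higher (53.3% of all genes were), with a median log2 change of 0.26, which was -0.0202 without TAp63-/- skin replicate 1. At an unadjusted p under 0.05, 3 were higher (against 3.02% of all genes), a number that was 0 without WT skin replicate 3. Myl1, a myosin light chain, was at 1525, 1678 and 1269 FPKM in WT and at 2545, 2282 and 2282 FPKM in TAp63-/- skin (log2 change 0.68, unadjusted p = 0.0109). Mylpf, another myosin light chain, and Casq1, the calcium store protein, had log2 changes of 0.45 and 0.42 (unadjusted p = 0.0281 and 0.0284). The muscle-specific protein gene Mybph was at 15.97, 8.96 and 3.62 FPKM in WT and at 19.7, 17.7 and 31.2 FPKM in TAp63-/- skin. The list's mean level was 8.67 to 8.84 in WT and 8.73 to 9.44 in TAp63-/- skin, so the list as a whole overlapped while these genes did not.

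Fat varied among the TAp63-/- libraries rather than between the genotypes. Of 18 adipocyte genes 17 were lower, with a median log2 change of -0.66, but 0 had an unadjusted p under 0.05. Adipoq, the fat hormone adiponectin, was at 100, 146 and 128 FPKM in WT and at 234, 37.2 and 53.2 FPKM in TAp63-/- skin. Replicate 1 was thus above and replicates 2 and 3 below all WT libraries, and the list's mean had the same order (5.95, 6.31 and 6.19 in WT, 6.87, 4.93 and 4.91 in TAp63-/- skin). Of 11 genes of fatty acid oxidation 9 were lower (46.4% of all genes were) and 2 were lower at an unadjusted p under 0.05 (against 1.98% of all genes). The mean log2(FPKM + 1) of this list was 4.98, 4.90 and 4.86 in WT and 4.997, 4.61 and 4.55 in TAp63-/- skin, so replicate 1 of TAp63-/- skin was the highest library and replicates 2 and 3 the lowest, as in the adipocyte list, and the part of fat content in these genes was not tested. Hadha, a subunit of the mitochondrial trifunctional protein, was at 73.7, 71.8 and 62.5 FPKM in WT and at 43.4, 52.9 and 45.3 FPKM in TAp63-/- skin (log2 change -0.55, SE 0.12, unadjusted p = 0.00436). Eci1, an enoyl-CoA isomerase, was at 12.2, 11.1 and 11.3 FPKM in WT and at 9.69, 7.23 and 7.29 FPKM in TAp63-/- skin (log2 change -0.48, unadjusted p = 0.0161). Of 17 glycolysis genes 0 had an unadjusted p under 0.05.

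Skint proteins bear on the dendritic epidermal T cells, the gamma-delta T cells of mouse epidermis. Their receptor segments overlapped between the groups: Trdv4 was at 18.4, 18.2 and 21.4 FPKM in WT and at 39.4, 8.62 and 7.40 FPKM in TAp63-/- skin, and Tcrg-V5 at 7.53, 7.75 and 14.0 FPKM in WT and at 23.5, 8.78 and 3.43 FPKM in TAp63-/- skin. Replicate 1 of TAp63-/- skin was the highest library in both segments. Of the 13 tested genes 7 were higher and 6 lower, with a median log2 change of 0.0065 (-0.305 without TAp63-/- skin replicate 1). Xcl1, a chemokine these cells make, was at 2.85, 2.99 and 3.26 FPKM in WT and at 6.86, 5.02 and 4.34 FPKM in TAp63-/- skin (log2 change 0.65, SE 0.17, unadjusted p = 0.00966). Il2rb, a chain of the interleukin-15 receptor, had a log2 change of 0.49 (unadjusted p = 0.0428), and Gzmc, described above, went the other way. At an unadjusted p under 0.05, 2 of the 13 were higher and 1 lower, against 3.02% and 1.98% of all genes. The number higher was 1 without WT skin replicate 1, WT skin replicate 2, TAp63-/- skin replicate 2 or TAp63-/- skin replicate 3. It was 0 with all 12 libraries in the fit and with the filter at a mean of at least 5 FPKM. The number lower was 0 without WT skin replicate 2 and 3 without TAp63-/- skin replicate 1.

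Among the other immune cells, all 8 alpha-beta T cell genes were higher on average, with a median log2 change of 0.46 and 2 at an unadjusted p under 0.05 (against 3.02% of all genes higher at that level). Trac, the constant segment of the alpha chain, was at 1.61, 3.12 and 2.65 FPKM in WT and at 8.72, 6.30 and 3.30 FPKM in TAp63-/- skin (log2 change 0.99, SE 0.34, unadjusted p = 0.0279). Cd8a was below 1 FPKM in every library, at 0.164, 0.219 and 0.175 FPKM in WT and 0.432, 0.633 and 0.346 FPKM in TAp63-/- skin (unadjusted p = 0.0173). The groups did not overlap in either, and the number at an unadjusted p under 0.05 was 0 without WT skin replicate 1 and 1 without TAp63-/- skin replicate 1. It was 1 with the filter applied to the skin libraries, since Cd8a was tested through the carcinoma libraries alone, and 0 with all 12 libraries in the fit. Of 10 macrophage genes 9 were higher, with a median of 0.35 and 0 at an unadjusted p under 0.05. The mast cell and neutrophil lists had medians of -0.11 and -0.050, which were 0.0018 without WT skin replicate 3 and 0.177 without TAp63-/- skin replicate 1. Of the 5 neutrophil genes tested, 1 was lower at an unadjusted p under 0.05 (against 1.98% of all genes). That gene, Retnlg, had a log2 change of -0.49 (unadjusted p = 0.0377) without overlap, and 3.85% of all genes were lower without overlap. Among 20 cytokine and chemokine genes, Tnf and the interferon-induced chemokine Cxcl9 were lower at an unadjusted p under 0.05 and Il18 higher. Those are 2 lower and 1 higher, against 1.98% and 3.02% of all genes. Tnf, at a log2 change of -0.28, was tested only because the carcinoma libraries entered the filter. Cxcl9 was at 5.71, 5.01 and 3.78 FPKM in WT and at 3.03, 3.45 and 2.72 FPKM in TAp63-/- skin (log2 change -0.51, unadjusted p = 0.0232). Il18 was at 9.46, 11.1 and 15.9 FPKM in WT and at 13.6, 25.4 and 30.5 FPKM in TAp63-/- skin (log2 change 0.84, unadjusted p = 0.0473), with overlap.

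Genes of proliferation showed no direction that held without TAp63-/- skin replicate 1. Of 28 mitosis genes 22 were lower, with a median log2 change of -0.20, and of 22 DNA replication genes 18 were lower, with a median of -0.096, but 0 genes of either list had an unadjusted p under 0.05. Without TAp63-/- skin replicate 1 the medians were 0.159 and 0.173. The mitosis list had a mean log2(FPKM + 1) of 3.34, 3.37 and 3.04 in WT and 2.31, 3.14 and 3.68 in TAp63-/- skin. Its lowest and its highest library were both TAp63-/- skin, replicates 1 and 3, and these were also the lowest and the highest of the TAp63-/- libraries in the hair lists. Of 12 senescence and growth arrest genes 7 were higher and 0 had an unadjusted p under 0.05, with Igfbp5 closest at a log2 change of 0.61 (unadjusted p = 0.0648).

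The remaining lists gave few differences. Of 18 cholesterol synthesis genes 4 were higher and 14 lower, with Sc4mol, a sterol demethylase, higher at a log2 change of 0.46 (unadjusted p = 0.0233) and Srebf2, the factor that drives the pathway, lower at -0.29 (unadjusted p = 0.0452). Of 13 lipogenesis genes, Dgat1, which makes triglyceride, was at 20.2, 21.5 and 20.7 FPKM in WT and at 25.4, 28.2 and 25.8 FPKM in TAp63-/- skin (log2 change 0.33, unadjusted p = 0.0131), without overlap. Of 19 interferon-induced genes 16 were higher, with a median log2 change of 0.20, and Oas2 alone had an unadjusted p under 0.05 (0.0238). Oas2 was at levels below 1 FPKM and was tested only because the carcinoma libraries entered the filter. Col5a2 among 18 collagen chains and Des, the intermediate filament of muscle, among 9 smooth muscle and pericyte genes were the only members of their lists at that level, at log2 changes of 0.43 and 0.29. The lists of spinous keratinocytes, companion layer, dermal papilla, melanocytes, endothelium, lymphatic endothelium, Schwann cells, B cells, Langerhans and dendritic cells, red blood cells, brown fat and mitochondrially encoded genes had 0 members at an unadjusted p under 0.05. Among them the spinous keratin gene Krt1 came closest, at 378, 573 and 817 FPKM in WT and 880, 817 and 1168 FPKM in TAp63-/- skin (log2 change 0.75, unadjusted p = 0.056), where WT skin replicate 3 equalled TAp63-/- skin replicate 2.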

How the data were processed

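The labels' processing notes from the submitters name TopHat2 2.0, Cufflinks 2.0 and the build mm10. The deposited values were read as FPKM because Cufflinks gives that unit and the values fit it. In all columns 99.98% of the sorted values lay within 1% of common values, from which quantile normalization by the authors was inferred, and no note records it. Read depth is therefore unknown.

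The table's 37924 entries were summed to 34303 symbols. The test took the 14752 genes that reached 1 FPKM in 2 or more of the 12 libraries. For the 6 skin libraries, log2(FPKM + 1) went into limma 3.58.1 (R 4.3.3) with the trend option. P-values are two-sided, adjusted by Benjamini-Hochberg over all tested genes, and an adjusted p below 0.05 was called. The procedure was tested on simulated data. Coordinates are mm10, with starts counted from 1. Of 776 entries in 56 gene lists, 769 were present (12 found by Ensembl identifier) and 743 tested.

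Called genes, the 12 largest differences in each direction described in the report, the 3 members of each list with the smallest p, the p63 family and cell type markers were to be named. The comparison and the lists were chosen with earlier results of these data known. Alternatives covered the pseudocount, filter, scaling, libraries in the fit, array weights, variance trend, summing, covariates and leaving out libraries.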

Additional observations from a re-analysis of the deposited data

How the results depend on the processing

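A total of 19 alternatives were run. The number of genes changed, 3 as reported, was 5 with a pseudocount of 0.1, 5 with the filter applied to the skin libraries, 5 with a mean of at least 5 FPKM and 0 when both libraries low in hair genes were left out, a choice made after seeing the data. Leaving out each library in turn gave 3 to 8 (5, 8 and 6 without WT skin replicates 1, 2 and 3). The small nuclear RNA U6 was added with a pseudocount of 0.1, the filter applied to the skin libraries and a mean of at least 5 FPKM. It was also added with the highest row of a symbol in place of the sum (4 genes called) and without WT skin replicate 2 or 3. The other genes added were Skint8, small RNAs and predicted genes. Skint3, Skint4 and Skint9 were called in each of these alternatives apart from the one with 0. With a skeletal muscle covariate Skint3 was not called (log2 change 5.42, adjusted p = 0.0537). Trp53 had log2 changes of 0.0031 with a hair shaft keratin covariate and, over the libraries left out in turn, from -0.306 to 0.00586. Of 1237 gene values under alternatives, 2 changed sign and 4 lost the call. No alternative moved the median of all genes by over 0.1, but the inferred quantile normalization holds that median near 0. No paired analysis was possible because the skin labels give no replicate numbers shared between the genotypes. Depth is unknown, and 3 libraries a group limit the precision.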
